A study of Rattus norvegicus with 12 samples.

Results

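Aminoacyl-tRNA synthetases are the enzymes that join each amino acid to its transfer RNA. Their messenger RNA was followed in livers of rats fed 3 protein sources. The members were 35 genes listed by symbol, 19 for cytosolic and 16 for mitochondrial enzymes, and each was taken from probe sets that carry its symbol and no other. All 19 cytosolic genes and 11 of the 16 mitochondrial genes had such a probe set, so that 30 genes (31 probe sets) of 14506 measured genes (15310 probe sets) are described. Cars2, Ears2, Iars2, Mars2 and Wars2 are not analysed here. The study used 12 Rat Gene 1.0 ST arrays of liver RNA from male diet-induced obese Sprague-Dawley rats, 4 samples for each diet, taken at 20 weeks of age after 8 weeks on the diet. All rats ate a diet rich in fat and sucrose without restriction, at 4.6 kcal per gram, with 10% of energy from protein. In the dairy diet that protein came from skim milk powder. In the leucine diet 7.1% of energy came from casein and 2.9% from leucine. The casein diet, with casein alone, was the control. Leucine added and casein removed cannot be told apart, nor can milk protein and the other parts of skim milk powder. Every group was obese and fed fat and sucrose, and no lean or chow-fed animals were compared. The labels give 1 sample per replicate number and do not state that each is 1 rat, so the p-values measure the spread between these samples.

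Each cytosolic synthetase charges the transfer RNA used by ribosomes in the cytosol. For most amino acids a separate nuclear gene encodes the enzyme that is imported into mitochondria to serve the ribosomes there. Gars1 and Kars1 have no such counterpart in the list, serve both compartments and are counted with the cytosolic genes. Several cytosolic enzymes sit together in a large complex with scaffold proteins. An uncharged transfer RNA activates the kinase GCN2, after which the transcription factor ATF4 raises genes of amino acid supply, and many cytosolic synthetase genes are known targets of ATF4 in mammalian cells. Leucine is also an activator of mTORC1, and the leucyl-tRNA synthetase Lars1 has been described as a leucine sensor of that pathway. Tryptophanyl-tRNA synthetase, the product of Wars1, is known in human cells as a protein induced by interferon gamma.

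Promoter stretches of the cytosolic genes that carry the letters of an ATF4 element are shown here because genes of the ATF4 pathway are set beside the synthetases below. RefSeq promoter windows (GRCr8, 250 bases before to 50 bases after the start) were available for 28 of the 30 genes, all but Gars1 and Rars1. The core of the C/EBP-ATF response element, TTGCATCA or its reverse complement, was in the windows of 7 of 17 cytosolic genes (41.2%), 0 of 11 mitochondrial genes and 0.795% of all 33469 windows. The 7 stretches follow in the direction of the gene, with the element in capitals, together with the stretch from Chac1, an ATF4 target that encodes a glutathione-degrading enzyme.
Aars1 (chr19:55908350-55908397, plus strand): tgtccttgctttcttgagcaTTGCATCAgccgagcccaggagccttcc
Cars1 (chr1:208225335-208225362, minus strand): ggcgccgcggTTGCATCAgattctggaa
Iars1 (chr17:15193649-15193696, minus strand): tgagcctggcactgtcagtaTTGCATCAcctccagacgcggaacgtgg
Mars1 (chr7:65023743-65023790, minus strand): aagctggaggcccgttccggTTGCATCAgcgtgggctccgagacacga
Nars1 (chr18:60275769-60275816, minus strand): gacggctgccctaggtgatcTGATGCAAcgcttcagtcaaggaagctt
Tars1 (chr2:62114802-62114849, minus strand): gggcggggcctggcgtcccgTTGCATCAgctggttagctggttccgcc
Yars1 (chr5:146820191-146820212, plus strand): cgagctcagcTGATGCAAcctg
Chac1 (chr3:126795944-126795991, plus strand): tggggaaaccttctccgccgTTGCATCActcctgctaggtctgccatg

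Counted from the RefSeq start, the element began at base -112 in Aars1, -27 in Tars1, -24 in Iars1, -17 in Mars1 and -14 in Nars1. It lay after the start in Cars1, at base 18, and in Yars1, at base 39. Among 30 windows of the ATF4 response list, 3 held the same core letters (10%), those of Chac1, Fgf21 and Nupr1. The looser letters TGATGNAA, which include the core, were found in the same 7 cytosolic genes and no mitochondrial gene, and in 3.98% of all windows. In the response list they were in 6 of 30 windows (20%), those of Pck2, Slc7a1 and Trib3 besides Chac1, Fgf21 and Nupr1. The ETS letters ACTTCCGG were in 7 of 17 cytosolic windows (41.2%), 3 of 11 mitochondrial windows (27.3%) and 3.81% of all windows. The NRF1 element (GCGCA followed by TGCGC) and the interferon-stimulated response element (GAAA, any 2 bases, then GAAA) were in none of the 28 windows, against 0.852% and 3.92% of all windows. The gamma-interferon activated site (TTCNNNGAA) was in 3 of 17 cytosolic windows (17.6%), those of Aars1, Lars1 and Qars1, in 1 of 11 mitochondrial windows (9.09%), that of Nars2, and in 8.87% of all windows. All letters were searched on both strands. A match describes the letters in this window, and no factor binding was measured.

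Values are the deposited log2 signals. The tissue label was borne out by the hepatocyte markers: all 10, including Alb, Ttr and Apoa1, lay at or above the 95.4 percentile of probe sets on every array. Column medians were between 4.43 and 4.62. The spread over probe sets was narrowest in dairy replicate 3 (SD 2.08) and casein replicate 4 (SD 2.14), against up to 2.33 in the other arrays. Values without these arrays stand beside the synthetase results they moved most.

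With the dairy diet no synthetase gene passed the threshold against casein, an adjusted p of 0.05 in limma with Benjamini-Hochberg adjustment over all probe sets; 13 probe sets (0.0849%) passed on the whole array. At an unadjusted p under 0.05, 2 of the 30 genes were lower with dairy, Yars2 and Hars2, both mitochondrial, and none was higher; over all probe sets the shares were 6.32% lower and 4.59% higher, 10.9% in all. The 19 cytosolic genes lay around 0, with 6 above and 13 below and a median log2 difference of -0.044, beside -0.023 over all genes. Their extremes were Vars1 (valyl-tRNA synthetase, 0.69 ± 0.40 SE) and Rars1 (arginyl-tRNA synthetase, -0.70 ± 0.56 SE), with limma adjusted p of 0.537 and 0.673. When arrays were weighted by quality Vars1 became 1.33 with limma adjusted p = 0.0420, and Rars1 became 0.18 with limma adjusted p = 0.827. Without dairy replicate 3 Rars1 was -0.27. In this comparison more probe sets passed on the whole array with array weights, without casein replicate 4 and without both arrays of narrow spread. Their share was not counted, so calls under these settings have no share beside them. The mitochondrial genes were lower in 10 of 11, with a median of -0.151, beside 53.3% of all genes below 0. Vars2 was the exception, at 0.26 ± 0.27 (SE), and it turned to -0.06 without both arrays of narrow spread and to -0.07 with array weights. Of the 10 hepatocyte markers 9 were below 0 with dairy and 9 with leucine, with medians of -0.128 and -0.091, and their part in the mitochondrial differences was not tested.

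With the leucine diet no synthetase gene passed against casein, where limma called 0 of all probe sets (0%), with 507 (3.31%) at an unadjusted p under 0.05. Lars2, the mitochondrial enzyme that charges leucine, was the single gene at an unadjusted p under 0.05 among the 30, and it was lower; 1.92% of all probe sets were lower and 1.39% higher at that level. The cytosolic genes had 8 above and 11 below 0 and a median log2 difference of -0.012, beside -0.031 over all genes. They ranged from Rars1 (-0.33 ± 0.56 SE) to Farsb (0.44 ± 0.46 SE), a subunit of phenylalanyl-tRNA synthetase. All 11 mitochondrial genes had a lower mean with leucine, from -0.40 for Hars2 to -0.01 for Yars2, with a median of -0.262; 56.8% of all genes were below 0. Both comparisons share the 4 casein arrays. Across the alternatives run, 9 to 11 of the mitochondrial genes were below 0 in each of these comparisons; the filter on dim probe sets left fewer than 11 to count. The difference between cytosolic and mitochondrial genes was not tested.

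**Figure D1:**
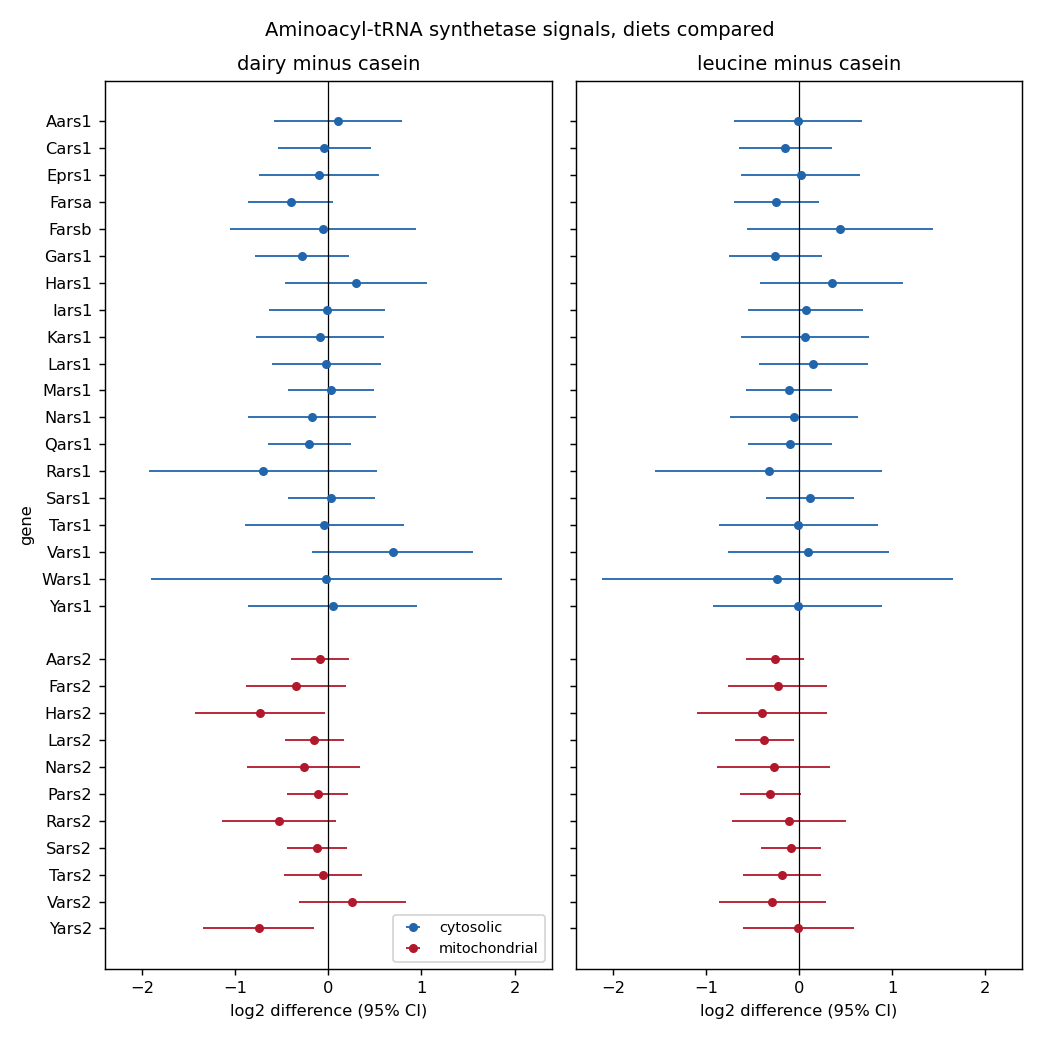
Log2 difference of each measured synthetase gene (rows, cytosolic above mitochondrial) for dairy minus casein (left) and leucine minus casein (right), 4 livers per diet. Points are limma estimates and lines their 95% confidence intervals. Most intervals cross 0; those of Yars2 and Hars2 with dairy and of Lars2 with leucine do not, before adjustment.

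Yars2, the mitochondrial tyrosyl-tRNA synthetase, had log2 signals of 6.21, 6.24, 5.15 and 6.57 in dairy livers, 7.11, 7.0, 6.36 and 6.67 in leucine livers, and 7.09, 6.64, 6.64 and 6.79 in casein livers. All 4 dairy livers lay below all 4 casein livers, as was true of 2.18% of all probe sets, and dairy replicate 3 was the lowest. The log2 difference of dairy minus casein was -0.75 ± 0.28 (SE; unadjusted p = 0.0182, limma adjusted p = 0.365). Without dairy replicate 3 it was -0.45 (unadjusted p = 0.0456, limma adjusted p = 0.624), and without both arrays of narrow spread -0.45 (unadjusted p = 0.0668, limma adjusted p = 0.329). Leucine minus casein was -0.01 ± 0.28 (SE), and the leucine and casein livers overlapped.

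Hars2, the mitochondrial histidyl-tRNA synthetase, had log2 signals of 5.79, 5.52, 5.09 and 5.75 in dairy livers, 6.07, 5.85, 5.61 and 5.98 in leucine livers, and 6.44, 6.47, 7.04 and 5.16 in casein livers. Of the casein livers, 3 lay above every dairy and leucine liver, and casein replicate 4 lay below all but dairy replicate 3. The log2 difference of dairy minus casein was -0.74 ± 0.32 (SE; unadjusted p = 0.0398, limma adjusted p = 0.440). Without casein replicate 4 it was -1.11, with a limma adjusted p of 0.0363. It also passed with both arrays of narrow spread left out (-0.96, limma adjusted p = 0.0493) and with array weights (-0.84, limma adjusted p = 0.0285). More probe sets passed on the whole array under each of these settings, and their share was not counted. Without casein replicate 3, the highest liver, the difference for Hars2 was -0.48 (limma adjusted p = 0.592). Leucine minus casein was -0.40 ± 0.32 (SE; limma adjusted p = 0.999), -0.77 without casein replicate 4 (limma adjusted p = 0.355) and -0.15 without casein replicate 3 (limma adjusted p = 0.999).

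The promoter window of Hars2 overlaps that of its cytosolic counterpart. In the RefSeq windows Hars1 and Hars2 run in opposite directions on chromosome 18 from starts 144 bases apart, and their windows share 243 bases. The outermost RefSeq coordinate of Hars2 lies 46 bases closer to Hars1 than the start its window uses, at a distance of 98 bases. Most of the stretch between the window starts is shown because both genes read outward from it; 2 copies of the ETS letters are in capitals.
Hars2 (chr18:28672713-28672831, plus strand): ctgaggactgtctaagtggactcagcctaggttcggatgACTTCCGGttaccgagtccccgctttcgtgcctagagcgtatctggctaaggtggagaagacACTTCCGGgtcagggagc
Hars1 had a log2 difference of 0.29 ± 0.35 (SE) for dairy minus casein, opposite in sign to that of Hars2. Within diets the signals of both genes had r = 0.53 over 12 livers. A second, dimmer probe set of Hars1 gave -0.28 ± 0.38 (SE), so its probe sets disagreed in sign and neither passed.

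The enzymes that charge leucine were of interest because leucine was the nutrient added. Lars1, the cytosolic enzyme, had log2 signals of 7.71, 7.43, 7.95 and 8.00 in leucine livers, 7.47, 7.65, 7.07 and 8.20 in dairy livers, and 7.79, 7.57, 8.13 and 6.99 in casein livers. The 3 diets overlapped throughout. Leucine minus casein was 0.15 ± 0.27 (SE), with a 95% confidence interval from -0.43 to 0.74 (limma adjusted p = 0.999). Dairy minus casein was -0.02 ± 0.27 (SE), with an interval from -0.61 to 0.57.

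Lars2 had log2 signals of 6.30, 6.22, 6.08 and 5.72 in leucine livers, 6.44, 6.26, 6.20 and 6.30 in dairy livers, and 6.58, 6.37, 6.50 and 6.36 in casein livers. All leucine livers lay below all casein livers, as was true of 1.38% of all probe sets, and leucine replicate 4 was the lowest. Leucine minus casein was -0.37 ± 0.15 (SE; interval from -0.69 to -0.06; unadjusted p = 0.0250, limma adjusted p = 0.999). Dairy minus casein was -0.15 ± 0.15 (SE), and dairy livers overlapped both other diets.

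**Figure D2:**
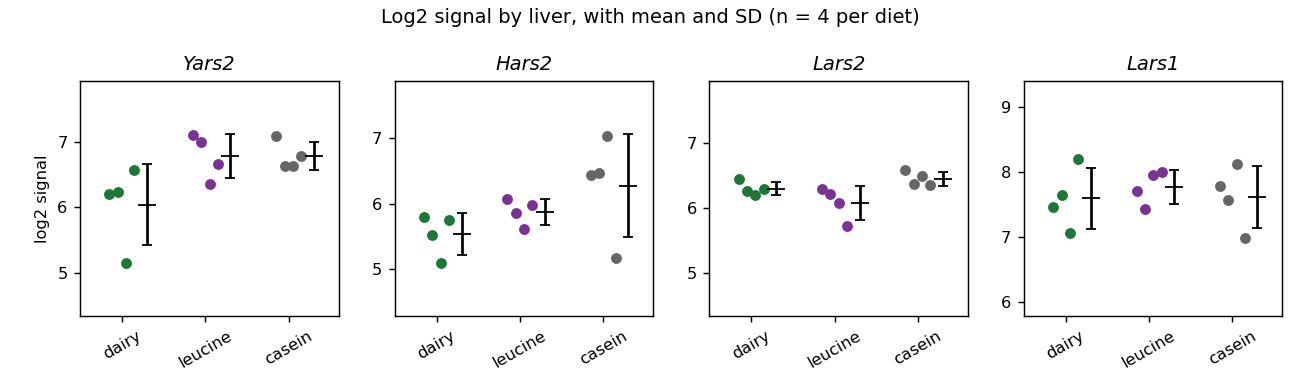
Log2 signal of Yars2, Hars2, Lars2 and Lars1 in each liver (points) by diet, with mean and SD to the right of the points (n = 4 per diet); all vertical axes span the same range and do not start at 0. All dairy livers are below the casein livers for Yars2, 1 casein liver is low for Hars2, and the diets overlap for Lars1.

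Between the test diets, leucine minus dairy, limma called 0 of all probe sets (0%; 1064, or 6.95%, at an unadjusted p under 0.05) and no synthetase gene. Yars2 was higher with leucine, at 0.74 ± 0.28 (SE; unadjusted p = 0.0189, limma adjusted p = 0.657), and it was the single member at an unadjusted p under 0.05; 3.65% of all probe sets were higher and 3.30% lower at that level. Without dairy replicate 3 it was 0.45 (unadjusted p = 0.0482, limma adjusted p = 0.900), and without both arrays of narrow spread 0.45 (unadjusted p = 0.0553, limma adjusted p = 0.665). Of the cytosolic genes 13 were above and 6 below 0, with a median of 0.086, and they ranged from Vars1 (-0.59 ± 0.40 SE) to Farsb (0.50 ± 0.46 SE). Farsb was 0.08 without dairy replicate 3 and -1.5e-03 with array weights. The split turned to 2 above and 17 below when both arrays of narrow spread were left out. The mitochondrial genes split 5 above and 6 below, with a median of -0.007 and Vars2 (-0.54 ± 0.27 SE) at the low end; 52.2% of all genes were below 0. The moderated F test over the 3 diets called no synthetase gene and 5 probe sets in all (0.0327%; 7.76% had an unadjusted p under 0.05).

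Eprs1, which joins glutamate and proline to their transfer RNA, had the highest mean signal of the members and Pars2, the mitochondrial prolyl-tRNA synthetase, the lowest, although signals of different probe sets do not rank transcript levels. Eprs1 had log2 signals of 9.75, 10.78, 9.82 and 11.05 in dairy livers, 10.21, 10.58, 10.40 and 10.67 in leucine livers, and 10.79, 9.95, 10.74 and 10.30 in casein livers. The diets overlapped, and the differences from casein were -0.10 ± 0.30 for dairy and 0.02 ± 0.30 for leucine (SE). Pars2 had 5.08, 4.92, 4.99 and 5.05 in dairy livers, 4.59, 5.03, 5.02 and 4.62 in leucine livers, and 5.30, 5.01, 5.27 and 4.92 in casein livers. Its differences from casein were -0.12 ± 0.15 for dairy and -0.31 ± 0.15 for leucine (SE; limma adjusted p of 0.808 and 0.999).

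The cytosolic synthetases varied together between livers of the same diet. After each diet's mean was subtracted, all 171 pairs of cytosolic genes were positively correlated over the 12 livers, with a median r of 0.75, and 87.7% of pairs had r above 0.5. For pairs of all measured genes the median r was 0.00 and 14.6% were above 0.5. The 55 mitochondrial pairs had a median r of 0.31, and the 209 pairs of a cytosolic with a mitochondrial gene a median of 0.04. The mitochondrial probe sets were dimmer, with means from 4.98 to 6.70 against 6.37 to 10.42 for the cytosolic genes. The part of dim signal and small spread in their lower correlations was not tested. These values are descriptions, since genes share their array, and part of such a correlation can follow the spread of the array. After quantile normalization between arrays, an alternative chosen after seeing the data, the cytosolic median was 0.65 and the mitochondrial median 0.17. Without the 2 arrays of narrow spread they were 0.69 and 0.22, and all 171 cytosolic pairs were positive in both. The median over pairs of a cytosolic with a mitochondrial gene turned to -0.16 after quantile normalization and -0.24 without those arrays.

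Livers with high cytosolic synthetase signals were found in every diet. In dairy livers, replicate 4 had all 19 cytosolic genes above the mean of the diet (median deviation 0.59) and replicate 2 had 15 (0.41), against 2 in replicate 1 (-0.29) and 0 in replicate 3 (-0.55). In leucine livers, replicates 4 and 3 had 18 and 15 genes above the mean (0.37 and 0.19), against 2 and 3 in replicates 1 and 2 (-0.22 and -0.33). In casein livers, replicate 3 had 17 (0.51), replicate 1 had 10 (0.04), replicate 2 had 6 (-0.27) and replicate 4 had 1 (-0.35). After quantile normalization casein replicate 4 had 7 above, and every other liver stayed within 3 genes of its count. The mitochondrial median deviations lay between -0.44, in casein replicate 4, and 0.19, in leucine replicate 1.

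**Figure D3:**
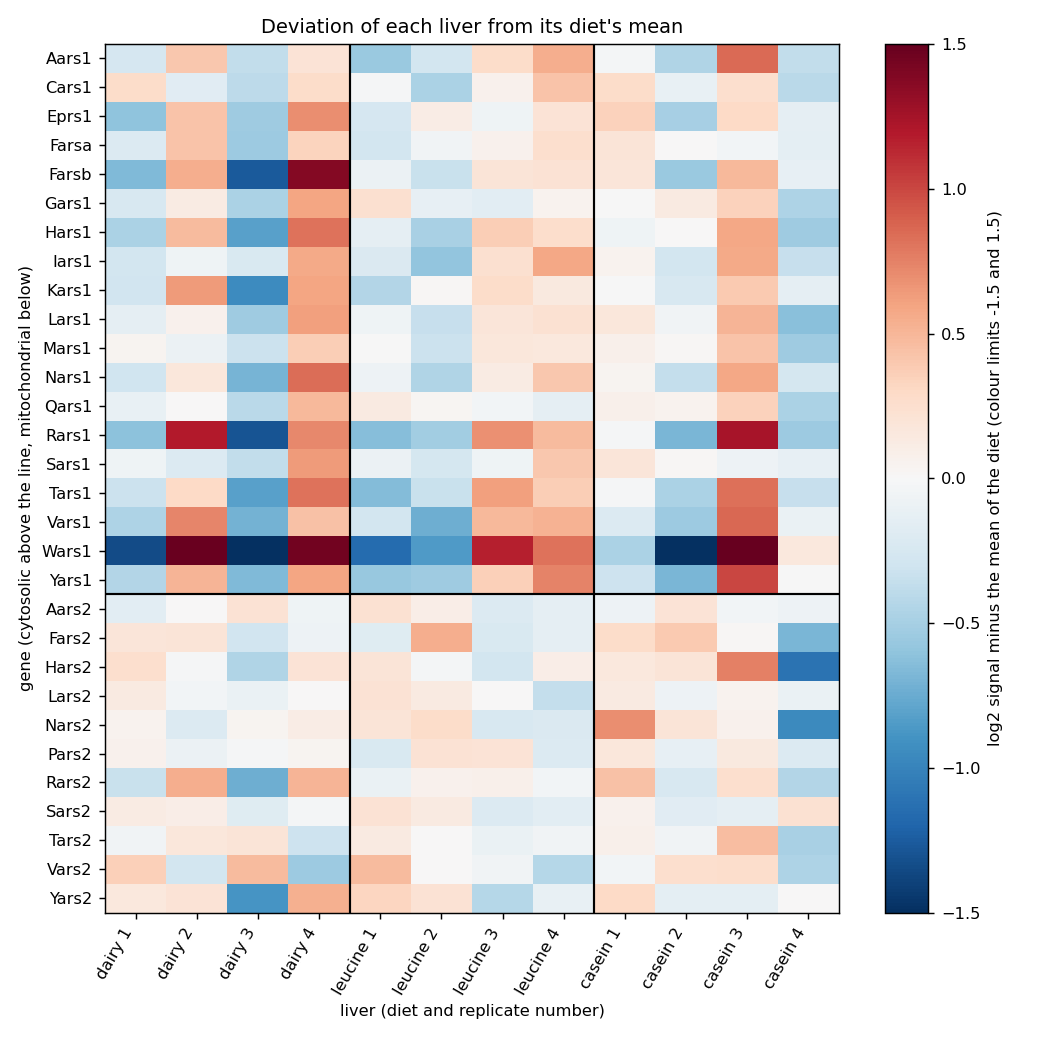
Log2 signal of each synthetase gene (rows) in each liver (columns) minus the mean of that liver's diet; red is above and blue below, with colours capped at 1.5 log2 units either way. Columns of mostly red cytosolic rows appear within each diet, for example dairy replicate 4, leucine replicate 4 and casein replicate 3, and the mitochondrial rows vary among themselves, with Rars2 also red in dairy replicates 2 and 4.

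Markers of neutrophils and of the acute phase and interferon state were high in many of the same livers. The 9 measured neutrophil markers of 10 had median deviations of 0.67 and 1.45 in dairy replicates 2 and 4, against -1.17 and -0.90 in dairy replicates 1 and 3. They had 1.17 and 0.45 in leucine replicates 3 and 4, against -1.26 and -0.50 in leucine replicates 1 and 2. In casein livers they had 1.56 in replicate 3, against -0.96, -0.78 and 0.12 in replicates 1, 2 and 4. Their summed linear signal ranged from 144 to 923 in dairy livers, 114 to 742 in leucine livers and 120 to 565 in casein livers. The 16 measured acute phase and interferon genes of 18 had their highest median deviations in casein replicate 3 (1.76) and dairy replicate 2 (1.33), and their summed signal ranged from 21600 to 51900, 15900 to 40000 and 16400 to 38100 in dairy, leucine and casein livers. Their part in the synthetase signals was not tested. In whole liver RNA, more cells of a type and more RNA per cell cannot be told apart.

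Wars1 varied most of all members, with an SD within diets of 1.43 log2 units, at the 99.3 percentile of all genes. The other cytosolic SDs ran from 0.30 for Qars1 to 0.92 for Rars1, and the mitochondrial SDs from 0.17 for Aars2 to 0.51 for Hars2. Wars1 had log2 signals of 6.43, 9.25, 6.19 and 9.23 in dairy livers, 6.42, 6.71, 8.74 and 8.39 in leucine livers, and 7.32, 6.30, 9.60 and 7.95 in casein livers. High and low livers occurred in each diet, and the differences from casein were -0.02 ± 0.87 for dairy and -0.23 ± 0.87 for leucine (SE).

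The livers high in Wars1 were those high in Gbp2, a guanylate-binding protein induced by interferon. Gbp2 had log2 signals of 4.95, 9.47, 5.52 and 8.79 in dairy livers, 5.03, 6.37, 7.60 and 7.17 in leucine livers, and 5.49, 5.45, 9.08 and 6.37 in casein livers. Within diets Wars1 and Gbp2 had Pearson's r = 0.95 (exact permutation within diets, two-sided p = 3.62e-04, adjusted over 16 relations 0.00579) and Spearman's rho = 0.94 (exact permutation p = 5.79e-04, adjusted 0.00579), over 12 livers. Without the 2 livers farthest from the median of Wars1, casein replicate 3 and dairy replicate 2, r was 0.93. Of the 16 acute phase and interferon genes compared with Wars1, 12 had an adjusted exact permutation p under 0.05 for r; Crp, Mx1, Mx2 and Oas1a did not, with r of 0.40, 0.48, 0.62 and 0.12. By rho, 9 passed, and Irf7, Isg15 and Ifit3 also did not (adjusted exact permutation p of 0.115, 0.0712 and 0.0712). Each diet has 4 livers, too few for a value of its own. These relations were chosen after the values were seen.

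Vars1 followed Asns, which encodes asparagine synthetase and is a classical ATF4 target. Vars1 had log2 signals of 6.41, 7.60, 6.15 and 7.30 in dairy livers, 5.99, 5.54, 6.76 and 6.80 in leucine livers, and 5.97, 5.62, 7.03 and 6.07 in casein livers. Asns had 6.50, 7.24, 6.17 and 7.05 in dairy livers, 5.54, 4.62, 6.12 and 6.60 in leucine livers, and 5.22, 4.42, 6.61 and 5.90 in casein livers. Its values were highest with dairy, though the diets overlapped. The moderated F test over the diets gave Asns an unadjusted p of 0.0583 and an adjusted p of 0.652. Within diets Vars1 and Asns had r = 0.91 and rho = 0.94 over 12 livers. Each had an exact permutation p of 7.2e-05, the smallest that 13824 reorderings within diets can give. Without the 2 livers farthest from the median of Asns, r was 0.91. This relation was 1 of 30 with Asns, chosen after the values were seen, and its p is not adjusted for that choice. All 19 cytosolic genes had a positive r with Asns within diets, from 0.16 for Qars1 to 0.91 for Vars1 and Yars1 with a median of 0.62, and 8 were above 0.7. The 11 mitochondrial genes ranged from -0.60 for Aars2 to 0.36 for Rars2, with a median of -0.14. Wars1, set beside Gbp2 above, had r = 0.85 with Asns. Whether the relation of Wars1 with Gbp2 and that of Vars1 with Asns are separate was not tested. Asns is 1 of 31 measured ATF4 response genes, and the list did not follow the cytosolic genes throughout. Its median deviations were 0.16 and -0.04 in dairy replicates 4 and 2, and 0.05 and 0.14 in leucine replicates 4 and 3. In casein replicate 3, high in cytosolic genes, the list had -0.02. In casein replicate 4, low in cytosolic genes, it had 0.24, the highest of all livers.

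**Figure D4:**
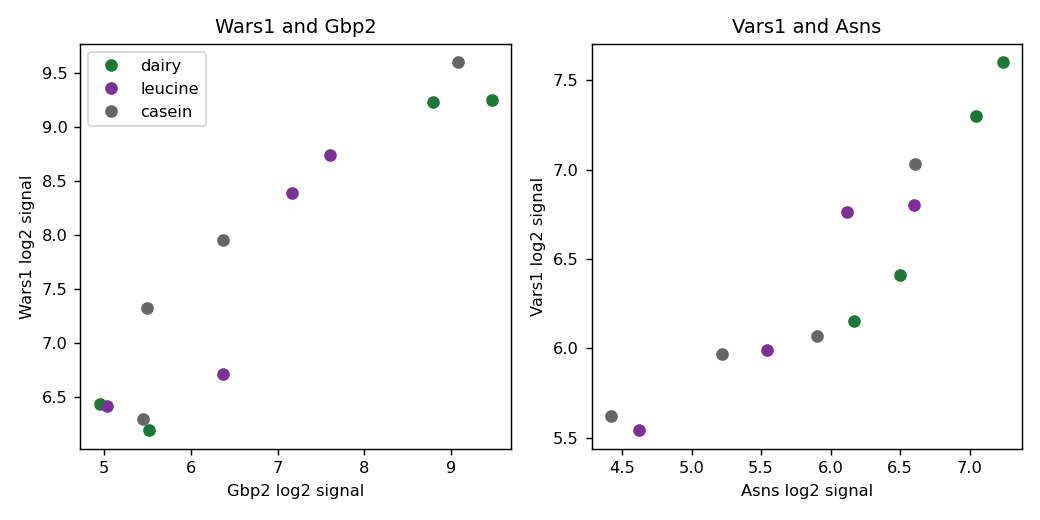
Log2 signal of Wars1 against Gbp2 (left) and of Vars1 against Asns (right), 1 point per liver, coloured by diet; axes do not start at 0. Within each diet the 2 signals rise together, with r within diets of 0.95 and 0.91, and the diets do not span the same range. On the left, Gbp2 reaches 7.60 in leucine livers, 9.47 in dairy livers and 9.08 in casein livers. On the right, Asns runs from 6.17 to 7.24 in dairy livers, 4.62 to 6.60 in leucine livers and 4.42 to 6.61 in casein livers.

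Cytosolic and mitochondrial enzymes for the same amino acid were compared over the 12 livers in 12 pairings, and the highest correlation within diets was that of Rars1 with Rars2 (r = 0.81). For Lars1 with Lars2 and for Nars1 with Nars2 r was 0.00, and for Aars1 with Aars2 and Vars1 with Vars2 it was -0.56 and -0.51. The remaining 7 pairings lay between -0.19 and 0.53.

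Genes of the ATF4 amino acid response were set beside the synthetases, because both are known outputs of that pathway. In dairy minus casein 22 of 31 measured response genes were above 0, with a median of 0.224, and 7 were higher and 2 lower at an unadjusted p under 0.05, beside 53.3% of all genes below 0, and 4.59% of all probe sets higher and 6.32% lower at that level; none passed in limma over all probe sets. Pck2, mitochondrial PEP carboxykinase, had log2 signals of 6.91, 6.81, 6.40 and 5.96 in dairy livers, 5.21, 5.48, 5.29 and 5.09 in leucine livers, and 5.37, 5.56, 5.62 and 4.92 in casein livers. All dairy livers lay above all casein livers, as was true of 2.09% of all probe sets, and the difference was 1.15 ± 0.22 (SE; limma adjusted p = 0.0772). It passed without casein replicate 4 (limma adjusted p = 0.0465), with array weights (1.12, limma adjusted p = 0.0130) and with the replicate block (1.15, limma adjusted p = 0.0467). It did not pass without dairy replicate 3 (limma adjusted p = 0.121), without casein replicate 3 (0.116) or without both arrays of narrow spread (0.0677). Phgdh and Psat1, enzymes of serine synthesis, and Trib3, a pseudokinase, had differences of 1.43 ± 0.36, 1.22 ± 0.40 and 1.16 ± 0.31 (SE; limma adjusted p of 0.204, 0.320 and 0.229), and a second probe set of Psat1 had 0.19 ± 0.32 (SE). Without casein replicate 4 Phgdh passed (1.71, limma adjusted p = 0.0371), and with array weights Phgdh and Trib3 passed (1.19 and 1.12, limma adjusted p of 0.0330 and 0.0473). Neither passed without both arrays of narrow spread (limma adjusted p of 0.0689 and 0.157).

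The 7 cytosolic synthetases with the element core in their windows had dairy minus casein differences from -0.18 to 0.10, with a median of -0.02. The 10 others with a window ranged from -0.40 to 0.69, with a median of -0.04. In leucine minus casein the 7 ranged from -0.15 to 0.07 and the 10 from -0.25 to 0.44, while the response list had a median of 0.090 with 19 of 31 above 0. The response list is not matched to the 7 by the element, since 3 of its 30 windows held the core (Chac1, Fgf21 and Nupr1). No difference between these groups of genes was tested.

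**Figure D5:**
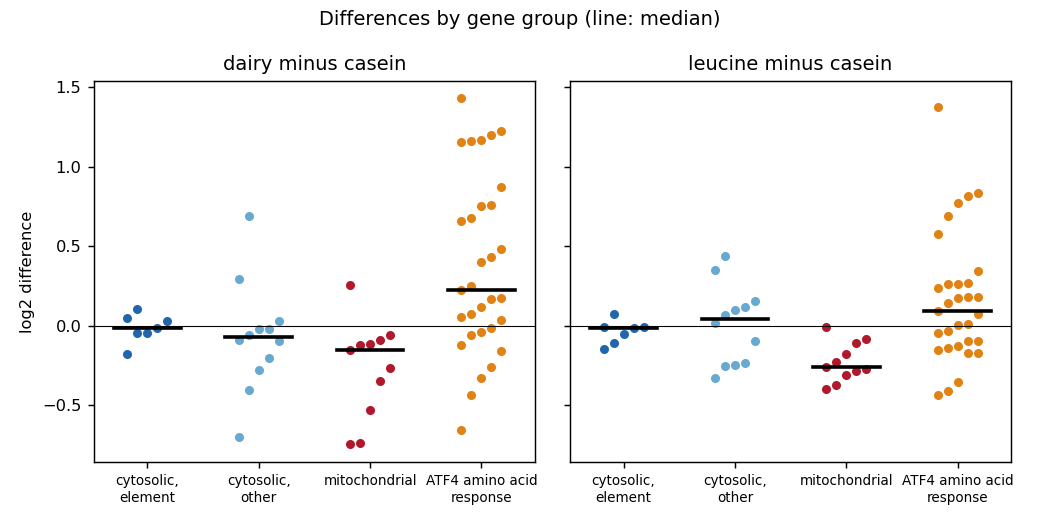
Log2 differences for dairy minus casein (left) and leucine minus casein (right), 1 point per gene and a line at the median, for the 7 cytosolic synthetases with the element core, the other 12 cytosolic synthetases (2 of them without a window), the 11 mitochondrial synthetases and 31 ATF4 response genes. The element carriers lie close to 0 in both panels, while several response genes lie above 1 with dairy. Of the response genes only Chac1, Fgf21 and Nupr1 hold the core in their windows, and none of these is among those above 1.

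Other steps of transfer RNA charging were read from lists of the pathway. None of their genes passed in limma in either comparison with casein. Over all genes 53.3% were below 0 with dairy, and 6.32% of all probe sets were lower at an unadjusted p under 0.05. All 5 measured genes of editing and selenocysteinyl-tRNA were below 0 with dairy, and 2 had an unadjusted p under 0.05. Dtd2, a deacylase that clears mischarged transfer RNA, had 7.29, 7.10, 7.04 and 7.10 in dairy livers, 7.51, 7.92, 7.37 and 7.09 in leucine livers, and 8.66, 8.27, 7.74 and 7.87 in casein livers. All dairy livers lay below all casein livers, as was true of 2.18% of all probe sets, and the log2 difference was -1.0 ± 0.22 (SE; unadjusted p = 5.77e-04, limma adjusted p = 0.124). It passed without casein replicate 4 (-1.09, limma adjusted p = 0.0458) and with array weights (-1.20, limma adjusted p = 0.0106). It did not pass without dairy replicate 3 (-0.97, limma adjusted p = 0.266) or without both arrays of narrow spread (-1.06, limma adjusted p = 0.0853). Leucine minus casein for Dtd2 was -0.66 ± 0.22 (SE; limma adjusted p = 0.999). Dtd1, a D-aminoacyl-tRNA deacylase, differed by -0.38 ± 0.15 (SE) with dairy.

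The scaffold genes of the multi-synthetase complex, Aimp1, Aimp2 and Eef1e1, had dairy minus casein differences of -0.40 ± 0.26, 0.11 ± 0.28 and -0.83 ± 0.52 (SE), none at an unadjusted p under 0.05. Without dairy replicate 3 Aimp1 and Eef1e1 were -0.16 and -0.37. For the mitochondrial glutaminyl-tRNA amidotransferase, Qrsl1 differed by -0.46 ± 0.26 and Gatc by 0.05 ± 0.17 (SE), and Mtfmt, which formylates the initiator methionyl-tRNA of mitochondria, by -0.51 ± 0.28 (SE). Of 19 measured genes of transfer RNA maturation and export, 13 were below 0 with dairy, beside 53.3% of all genes. At an unadjusted p under 0.05, 2 were lower, beside 6.32% of all probe sets. They were the ribonuclease P subunit Pop4 (-0.76 ± 0.24 SE, limma adjusted p = 0.316) and the RNA kinase Clp1 (-0.81 ± 0.29 SE, limma adjusted p = 0.355). Of 5 genes that deliver charged transfer RNA to the ribosome, 3 were above 0, among them the elongation factor subunit Eef1b2 (0.52 ± 0.22 SE, limma adjusted p = 0.435). With array weights Pop4 and Eef1b2 passed (-0.73 and 0.73, limma adjusted p of 0.0472 and 0.0483), as did Prorsd1 of the editing list (-0.88, limma adjusted p = 0.0244). Tars3, a further threonyl-tRNA synthetase that is not among the 35, differed by -0.42 ± 0.20 (SE, limma adjusted p = 0.470).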

How the data were processed

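Liver RNA of 12 samples was hybridised to Rat Gene 1.0 ST arrays. The authors deposited 1 table of log2 signals per probe set; Affymetrix Expression Console is named in the submitters' processing notes, and no source used here gives its summarisation method or version. Changes of dim probe sets are understated on this scale, and precision is limited by the number of arrays. The table holds 29214 probe sets: 15310 have exactly 1 symbol in the platform annotation and were tested, 323 have several, and 13581 are not listed. Samples were grouped by the diet in their labels. All 31 member probe sets matched a RefSeq gene of the same symbol.

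The 3 diets were fitted in limma 3.58.1 (R 4.3.3) on all 12 arrays (group means, eBayes, 9 residual and 3.448 prior degrees of freedom), two-sided, with Benjamini-Hochberg adjustment over all 15310 probe sets. The probe set with the highest mean stands for a gene. The members and lists were chosen with earlier results of these data known, so no p-value is given for a list. Genes described in full are members at an unadjusted p under 0.05 in a comparison, Lars1, Lars2, and the members of highest and lowest mean, with up to 4 genes per other list by the smallest moderated F p; Vars1, Wars1, Asns and Gbp2 were added after their values were seen. Deviations and correlations between livers used values minus the diet mean, in Python 3.11.15. On simulated data the dairy comparison recovered 57.0% of 100 changed probe sets of log2 size 1 and 88.0% of 100 of size 2, among 15310. These shares describe the simulated probe sets, and recovery for the members was not tested. In dairy minus casein the confidence intervals of the members were wider than those of all genes. The median width was 1.37 for cytosolic and 1.07 for mitochondrial genes, against 0.891 over all genes. Alternatives covered normalization, probe sets tested, eBayes settings, array weights, a replicate block, the arrays fitted and each array left out. The livers numbered 1 deviated together (r from 0.375 to 0.590), while those of the other numbers had r from -0.505 to 0.532. The labels do not tie the numbers to rats, so they were not taken as pairs.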

Additional observations from a re-analysis of the deposited data

Results flagged for a closer look

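Of 90 sets of 4 livers of 1 member and 1 diet, 1 held a liver far from the other 3, where chance gives about 1 in 20. Fars2, the mitochondrial phenylalanyl-tRNA synthetase, had a log2 signal of 6.53 in leucine replicate 2, against 5.75 to 5.85 in the other leucine livers.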

How the results depend on the processing

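Of 1083 alternative values for 52 single-gene results, 1033 kept their direction and side of the threshold, 35 changed sign and 15 passed the threshold, all of them dairy minus casein. The number of members called with dairy, 0, became 2 with array weights (Hars2 and Vars1) and 1 (Hars2) without the 2 narrowest arrays. Over single arrays left out it was 0 to 1. No alternative called a member in the other comparisons. The share of all probe sets called under the alternatives was not counted, and calls rose array-wide. With array weights Pop4 passed at a limma unadjusted p of 0.00341, while Pck2 at 1.91e-04 missed the threshold in the main fit.

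Members at an unadjusted p under 0.05 numbered 2 with dairy minus casein, 1 with leucine minus casein and 1 with leucine minus dairy. With array weights they numbered 6, 6 and 2. The shares of all probe sets at that level were not counted under any alternative. Leaving out the 2 narrowest arrays gave 5 with leucine minus casein and 0 with leucine minus dairy, trend and robust eBayes gave 0 with leucine minus casein, and fitting only dairy and casein arrays gave 1. With the replicate block, whose numbers do not pair the livers by the labels, they were 1 with dairy minus casein and 2 with leucine minus dairy. With single arrays left out they ran from 0 to 5, 0 to 4 and 0 to 3.

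Cytosolic members below 0 with dairy minus casein (13) became 8 after quantile normalization and 4 with array weights, and ran from 4 to 16 over arrays left out. With leucine minus casein (11) they became 6 with array weights and ran from 3 to 15. With leucine minus dairy (6) they became 11 after quantile normalization, 15 with array weights and 17 without the narrowest arrays, and ran from 3 to 17. These counts were chosen after seeing the data, and the share of all genes below 0 was not counted under any alternative. Mitochondrial counts ran from 9 to 11, 9 to 11 and 5 to 8 over all alternatives.

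Some signs turned. Lars1 ran from -0.23 to 0.15 (dairy minus casein), -0.06 to 0.32 (leucine minus casein) and -3.9e-04 to 0.38 (leucine minus dairy) over arrays left out. It was 0.08 after quantile normalization and 0.06 with array weights for dairy minus casein, and -0.06 and -3.9e-04 without the narrowest arrays for leucine minus casein and leucine minus dairy. Eprs1 ran from -0.33 to 0.10, -0.15 to 0.13 and -0.08 to 0.35; array weights gave 0.29 and -0.17 for dairy minus casein and leucine minus dairy, and without the narrowest arrays it was 0.03, -0.03 and -0.06. For leucine minus casein Yars2 was 0.03 after quantile normalization, 0.02 after median centring and -0.11 to 0.14 over arrays left out, and Rars1 ran from -0.56 to 0.09. For dairy minus casein array weights gave Rars1 0.18 and Vars2 -0.07, Vars2 was -0.06 without the narrowest arrays, and Aimp2 ran from -0.14 to 0.31. For leucine minus dairy array weights gave Farsb -1.5e-03. The cause of these moves was not tested. The filter on dim probe sets, set at the median mean signal, leaves out Pars2 alone among the mitochondrial members.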
